A study of Mus musculus with 6 samples.

Results

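The Hes and Hey genes encode transcriptional repressors of the basic helix-loop-helix type, and several of them are direct targets of the Notch receptors. The family was taken here as Hes1, Hes2, Hes3, Hes5, Hes6, Hes7, Hey1, Hey2 and Heyl, which are 9 of 18194 genes named on the array and were read by 13 of its 45101 probe sets. All probe sets annotated to exactly 1 of these 9 genes were kept, whatever their level. Of the 9 genes, 6 had 1 probe set, and Hes5, Hes6 and Heyl had several.

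The samples were bone marrow cells sorted as lineage negative, cKit+ and Sca1-, which the labels call adult myeloerythroid progenitors. The 3 ICN2 positive samples came from Rosa-lsl-ICN2 Mx1-cre+ male mice and the 3 ICN2 negative samples from Mx1-cre+ female littermates. All mice were 6 weeks old and had received polyIC 3 times at 20 mcg per g of body weight, with the cells taken 1 week after the last injection. The controls therefore shared the Mx1-cre allele and the polyIC, but not the sex. Because of this, the effects of genotype and of sex cannot be told apart here. ICN2 is the intracellular part of Notch2, which signals without a ligand. It sits in the Rosa26 locus behind a stop cassette that the Cre removes, and the interferon-responsive Mx1 promoter that drives the Cre acts in many cell types. The share of cells in which the cassette was removed was not measured on these arrays. The labels do not say whether the replicates were separate animals, so the p-values measure how these arrays varied, and part of that variation may be technical.

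When a ligand binds a Notch receptor, the intracellular part is cut free, enters the nucleus and joins the DNA-binding protein RBPJ, which then switches from repressing to activating its targets. Hes and Hey genes lie among the targets that respond directly in many tissues. Their products bind DNA as dimers and recruit corepressors, the Hes proteins through a short motif at their end that binds the Groucho-related TLE proteins. In blood formation, Notch signalling and Hes1 are best known for their part in the T lineage.

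The values were log2 intensities after RMA, and all differences are ICN2 positive minus ICN2 negative. The 40th percentile of each array, at 5.26 to 5.30 on this scale, marked dim probe sets. It is a limit of the filter and not a measured background. The array medians of log2 intensity were 6.05 to 6.09. Of the ICN2 positive arrays, replicate 1 was the least like the others, with correlations across probe sets of 0.984 and 0.987, against 0.995 between ICN2 positive replicates 2 and 3. Its difference between 3' and 5' control probe sets for beta-actin was 1.01, against 0.71 to 0.85 on the other arrays. Kit, which encodes the receptor used in the sort, was above the 40th percentile on all 6 arrays, as were all 8 genes listed for these progenitors, while Itgam, a marker of mature myeloid cells, was below it on all 6. None of the 8 passed the test in limma, also at an unadjusted p of 0.05. Those of smallest p were the surface marker gene Cd34 (-1.35 ± 0.64) and the granule enzyme gene Mpo (-1.02 ± 0.54). Without ICN2 positive replicate 1 these differences were -0.58 and -0.37. With all arrays, Spi1 and Cebpa differed by -1.04 and -1.74. Kit, Gata1, Gata2 and Klf1 went the other way, by 0.12, 0.08, 0.24 and 0.16. The summed intensity of the 8 was 45928 to 47155 in ICN2 negative and 23108 to 42334 in ICN2 positive samples, without overlap. Of 4 measured genes that the sort should remove, none passed and 2 were higher at an unadjusted p of 0.05, the T cell receptor complex genes Cd3e and Cd3g; Ly6a, which encodes Sca1, was not analysed here. The arrays matched the sex labels, with Xist, the X-inactivation RNA, lower in ICN2 positive samples and the Y-linked genes Eif2s3y, Kdm5d and Uty higher.

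Hey1, Hey2 and Hes1 were higher in ICN2 positive cells, and none of the other 6 genes passed the test. In the fit without a filter, which tests all 13 probe sets of the family, 3 were higher at an adjusted p of 0.05 and none was lower (limma, Benjamini-Hochberg over 45037 probe sets). At an unadjusted p of 0.05, 1 was lower. Counts at an unadjusted p, here and elsewhere in the text, have no share over all probe sets beside them and are not read as results. Over all probe sets in that fit, 0.786% were called higher and 0.484% lower. The main fit kept probe sets above the 40th percentile on at least 3 arrays. It tested 6 of the 13 family probe sets, from 5 genes, and called the same 3, where 1.67% of 27424 probe sets were called higher and 0.988% lower. Hey2 passed the filter through its ICN2 positive arrays alone, so it had to differ and the count in the main fit is not read against the background. The median difference of the 13 probe sets was 0.04, against 0.01 over all probe sets, and apart from Hey1, Hey2 and Hes1 the differences lay between -0.37 and 0.22.

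**Figure D1:**
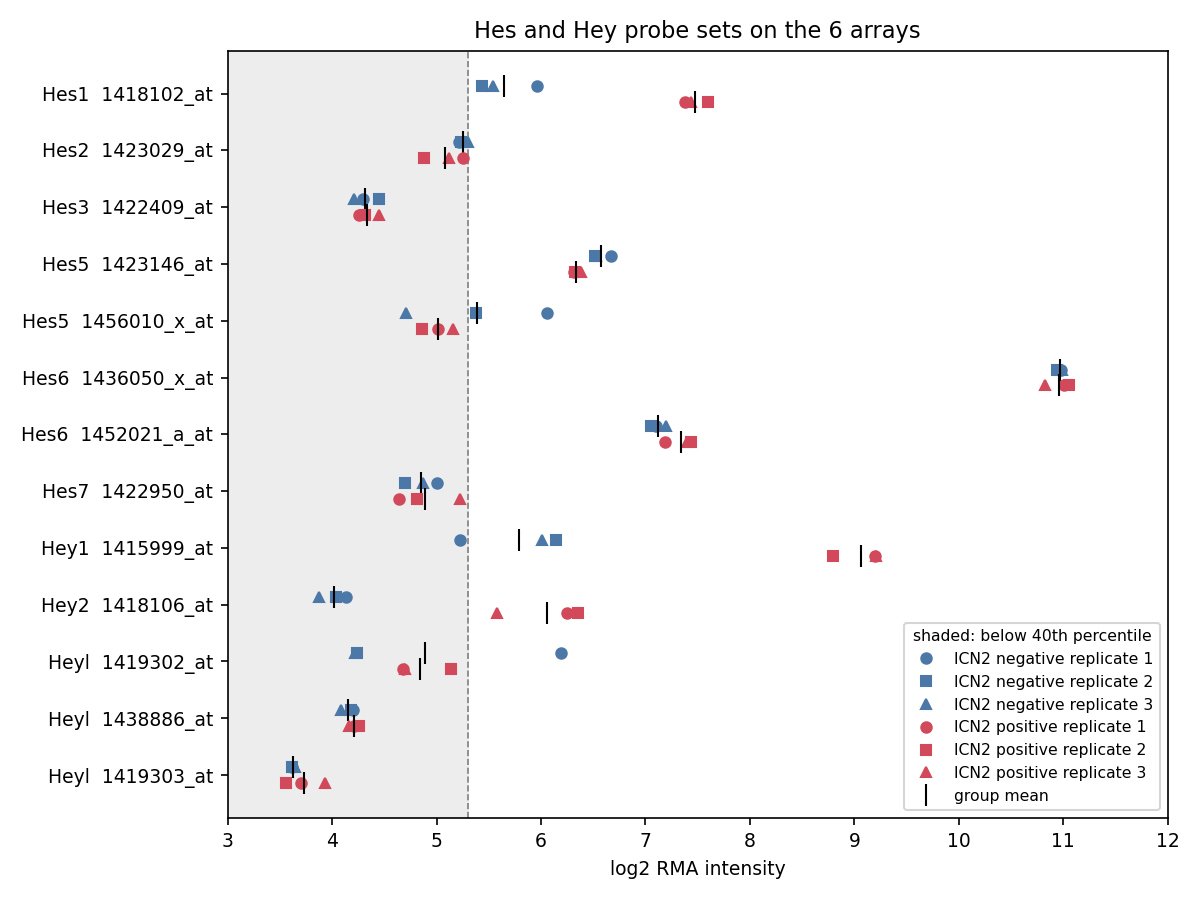
Log2 RMA intensity (x axis) of the 13 Hes and Hey probe sets (y axis) on each of the 6 arrays; blue marks are ICN2 negative, red marks ICN2 positive, marker shapes give the replicate, black ticks the group means, and the shaded area lies below the 40th percentile of the arrays. The red marks of Hes1, Hey1 and Hey2 lie to the right of all their blue marks, and those of Hes5 1423146_at to the left.

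Hey1 encodes a repressor that Notch induces in vessels, heart and other tissues. Its probe set (1415999_at) read 5.22, 6.15 and 6.01 in ICN2 negative replicates 1, 2 and 3, and 9.20, 8.80 and 9.21 in ICN2 positive replicates 1, 2 and 3. All ICN2 positive values lay above all ICN2 negative values, as was so for 14.5% of all probe sets, and ICN2 negative replicate 1 fell below the 40th percentile. The group means were 5.79 ± 0.50 and 9.07 ± 0.23 (log2 intensity, mean ± SD, n = 3). On the linear scale, the intensity was 37.4, 70.9 and 64.5 in the ICN2 negative samples against 586, 445 and 592 in the ICN2 positive samples. The rise was 3.27 ± 0.27 on the log2 scale (difference ± SE), or 9.67-fold, with a 95% interval of 2.61 to 3.94 and an adjusted p of 0.00867 in limma. It was the 43rd largest rise among the 27424 probe sets tested.

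Hey2 encodes a close relative of Hey1 that is known for its part in the developing heart and arteries. Its probe set (1418106_at) read 4.13, 4.04 and 3.88 in the ICN2 negative samples and 6.25, 6.36 and 5.58 in the ICN2 positive samples. All 3 ICN2 negative arrays lay below the 40th percentile and all 3 ICN2 positive arrays above it, with replicate 3 the lowest of the ICN2 positive group. The means were 4.02 ± 0.13 and 6.06 ± 0.42 (n = 3), a fitted rise of 2.04 ± 0.22 (adjusted p = 0.0157). Set against the 40th percentile in place of the dim ICN2 negative values, Hey2 was at least 1.71-fold higher, a lower bound under that limit. With an offset of 32 added before the log, which damps dim probe sets, the rise was 1.04 (adjusted p = 0.0257). Leaving out any of the ICN2 negative arrays ended its call, at adjusted p-values of 0.0531 to 0.0917.

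The promoter windows of Hey2 and Hes5 are shown because both hold a pair of matches to the core motif bound by RBPJ, while Hey2 rose and Hes5 did not pass the test. The windows come from the RefSeq promoter table (GRCm38.p6), which runs from 250 bases before a gene's start to 50 bases after it and which held 4 of the 9 genes: Hes5, Hes6, Hes7 and Hey2. The Hey2 stretch is chr10:30842764-30843033 on the minus strand and the Hes5 stretch chr4:154960673-154960942 on the plus strand, both 270 bases written 5′ to 3′ along the gene. Capitals mark GTGGGAA or, for a match on the other strand, its reverse complement TTCCCAC.
Hey2: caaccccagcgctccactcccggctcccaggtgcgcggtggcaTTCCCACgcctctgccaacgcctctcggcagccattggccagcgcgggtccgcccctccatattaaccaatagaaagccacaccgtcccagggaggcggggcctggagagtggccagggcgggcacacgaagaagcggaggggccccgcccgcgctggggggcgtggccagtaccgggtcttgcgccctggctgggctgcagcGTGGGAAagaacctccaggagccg
Hes5: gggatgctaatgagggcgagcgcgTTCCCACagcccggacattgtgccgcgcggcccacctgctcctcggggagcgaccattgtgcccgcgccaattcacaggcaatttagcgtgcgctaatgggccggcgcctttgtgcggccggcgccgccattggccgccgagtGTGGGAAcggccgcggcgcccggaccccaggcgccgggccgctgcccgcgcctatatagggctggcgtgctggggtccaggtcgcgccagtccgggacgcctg
With the start base counted as 0, the matches began at -207 and -4 in Hey2, and at -226 and -83 in Hes5. In each pair the upstream match lay on the opposite strand to the gene and the downstream match on the same strand, with 196 bases between them in Hey2 and 136 in Hes5. The Hes7 window held 1 match and the 2 Hes6 windows none. Of 32851 windows of 300 bases in the table, 6.38% held at least 1 match and 0.256% at least 2, searched on both strands. The windows of Hey2 and Hes5 held neither CACGTG, an E-box bound by Hey proteins, nor CACNAG, the N-box bound by Hes proteins. Those motifs occurred in 7.15% and 42.5% of all windows. A match is a description of these letters, not a measured binding site.

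Heyl, the other Hey gene, was read by 3 probe sets, and none was called. Probe set 1419302_at read 6.20, 4.24 and 4.22 in the ICN2 negative samples and 4.68, 5.14 and 4.70 in the ICN2 positive samples. The ICN2 negative replicate 1 value was the only one above the 40th percentile, and the groups overlapped. The difference was -0.05 with a 95% interval from -1.38 to 1.28, which is wide enough to hold a change in either direction (adjusted p = 0.978 in limma without a filter). Probe sets 1438886_at and 1419303_at lay between 3.56 and 4.26 on all 6 arrays, below the 40th percentile. Their differences were 0.06 (-0.12 to 0.24) and 0.11 (-0.16 to 0.38).

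Hes1 encodes the best studied Notch-induced repressor of the family. Its single probe set (1418102_at) read 5.96, 5.44 and 5.55 in the ICN2 negative samples and 7.38, 7.60 and 7.44 in the ICN2 positive samples. All ICN2 positive values lay above all ICN2 negative values, as was so for 14.5% of all probe sets. All 6 values lay above the 40th percentile, and the ICN2 negative values lay close to it. The means were 5.65 ± 0.28 and 7.47 ± 0.12 (n = 3), a rise of 1.82 ± 0.16 or 3.54-fold, with a 95% interval of 1.44 to 2.21 (adjusted p = 0.00894). The spread within each group was small against this rise, and ICN2 positive replicate 1, at 1.73 above the ICN2 negative mean, was close to replicates 2 and 3, at 1.95 and 1.79.

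Hes5, a Notch target of neural progenitors, was read by 2 probe sets. Probe set 1423146_at read 6.67, 6.52 and 6.52 in the ICN2 negative samples and 6.31, 6.32 and 6.38 in the ICN2 positive samples. All ICN2 positive values lay below all ICN2 negative values, as was so for 11.1% of all probe sets. The difference was -0.23 ± 0.08, with a 95% interval of -0.42 to -0.04, and it did not pass after adjustment (adjusted p = 0.154). For this probe set the interval holds no rise, in contrast to Hes1 and Hey1, but it is not adjusted for the number of tests. With a variance trend in eBayes the difference was -0.23 ± 0.12. Probe set 1456010_x_at read 6.06, 5.38 and 4.71 in the ICN2 negative samples and 5.01, 4.86 and 5.16 in the ICN2 positive samples. The ending _x_at marks a probe set whose probes can match other sequences. Here the ICN2 negative samples spread more widely than the groups differed (-0.37, 95% interval -1.17 to 0.43).

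Hes6 encodes a member that acts against Hes1 and is not driven by Notch in the tissues where it has been studied. It was the only gene of the family with both probe sets above the 40th percentile on all arrays. Probe set 1436050_x_at read 10.98, 10.94 and 10.98 in the ICN2 negative samples and 11.01, 11.05 and 10.83 in the ICN2 positive samples. The groups overlapped, with a difference of -0.0040 ± 0.09 and a 95% interval of -0.22 to 0.21. Probe set 1452021_a_at, whose ending marks probes shared by several transcripts of a gene, read 7.10, 7.05 and 7.20 against 7.18, 7.43 and 7.40. Its difference was 0.22 ± 0.10 (adjusted p = 0.236), with a 95% interval of -0.02 to 0.46. Both intervals lie far under the rises of Hes1 and Hey1.

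Hes2, Hes3 and Hes7 were dim and did not pass the test. Hes7, a clock gene of the forming vertebrae, read 5.00, 4.70 and 4.87 in the ICN2 negative samples and 4.64, 4.82 and 5.23 in the ICN2 positive samples, all below the 40th percentile. Hes3, a gene of neural progenitors, lay between 4.21 and 4.45 on all 6 arrays. Hes2 lay between 4.88 and 5.30, with ICN2 negative replicate 3 alone above the 40th percentile. The groups overlapped for all 3 genes. The differences were 0.04 (95% interval -0.38 to 0.45) for Hes7, 0.02 (-0.21 to 0.26) for Hes3 and -0.17 (-0.44 to 0.11) for Hes2.

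**Figure D2:**
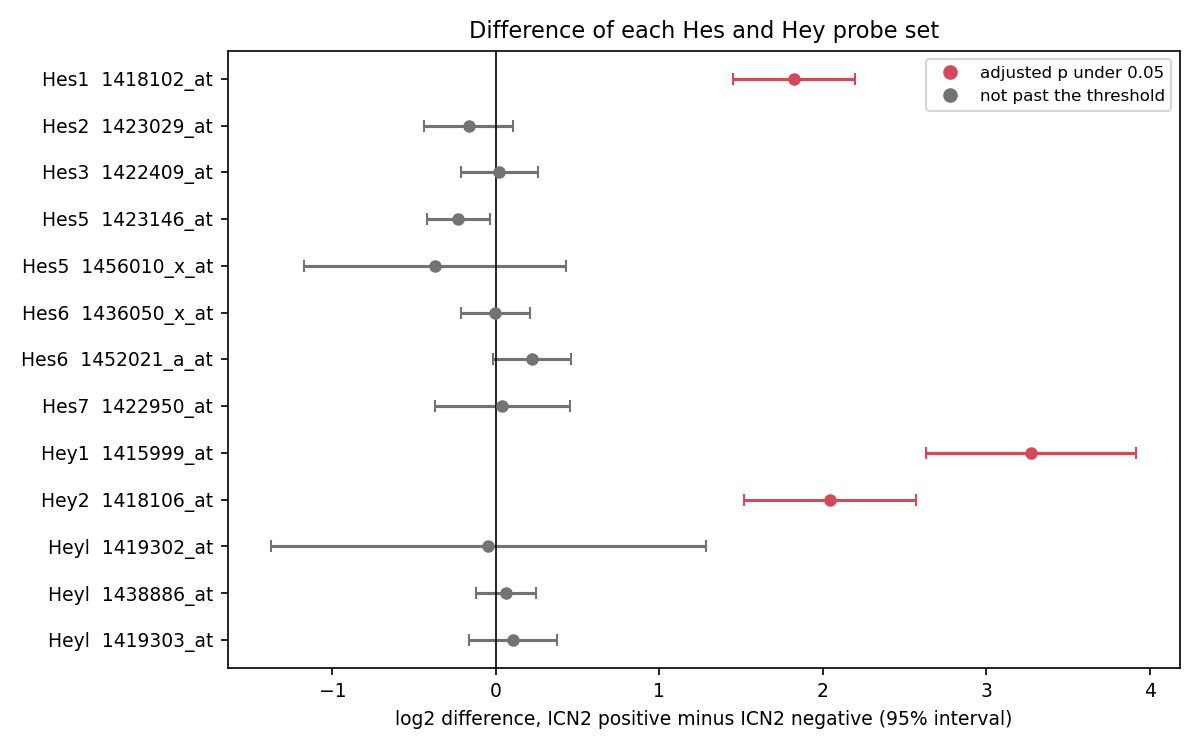
Log2 difference, ICN2 positive minus ICN2 negative (x axis), of each of the 13 probe sets (y axis) in the fit without a filter; points are the differences, bars their 95% intervals, and red marks an adjusted p under 0.05. Hes1, Hey1 and Hey2 lie at 1.82, 3.27 and 2.04, and the other 10 probe sets between -0.37 and 0.22.

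The calls of single members depended on which arrays were in the fit, while the sizes of the rises moved little. Without ICN2 positive replicate 1, the array that stood apart, Hey1, Hey2 and Hes1 rose by 3.21, 1.95 and 1.87 and all 3 passed, where 1.59% of all probe sets were called higher. With any 1 array left out, the rise was 2.99 to 3.45 for Hey1, 1.90 to 2.29 for Hey2 and 1.72 to 1.98 for Hes1. Without ICN2 positive replicate 3, Hey1 and Hes1 missed the threshold narrowly (adjusted p = 0.0503 and 0.053) and only Hey2 was called, where 0.277% of all probe sets were called higher. Without ICN2 negative replicate 3, Hes1 and Hey2 missed it (adjusted p = 0.0582 and 0.0863) and only Hey1 was called, where 0.244% of all probe sets were called higher.

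**Figure D3:**
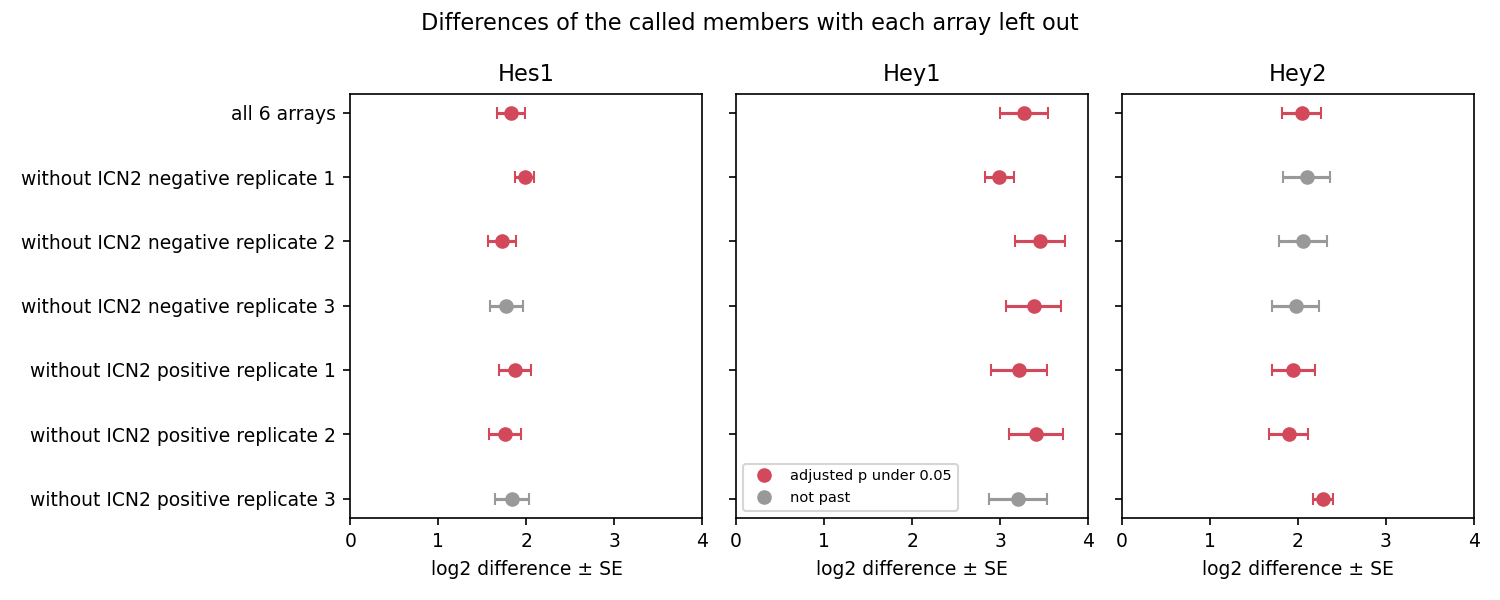
Log2 difference ± SE (x axis) of Hes1, Hey1 and Hey2 with all 6 arrays and with each array left out (y axis); red marks an adjusted p under 0.05 and grey one that missed it. The differences stay between 1.72 and 1.98 for Hes1, 2.99 and 3.45 for Hey1, and 1.90 and 2.29 for Hey2, while the calls vary.

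The genes whose values over the 6 arrays were most like those of Hes1, among 12109 genes compared, were Slc45a3 (r = 0.999), Tmem131, the cytotoxic protease gene Gzmb (r = 0.998), Scin, which encodes an actin-severing protein, and the DNA methyltransferase gene Dnmt3b (r = 0.997). Their rises ranged from 0.68 for Tmem131 to 5.07 for Gzmb. The genes most like Hey1 were Susd2 (r = 0.997), Rassf6 (r = 0.996), the cytokine gene Il4 (r = 0.995), the mitotic kinesin gene Kif20a and Ntpcr (r = 0.993). Susd2, Rassf6 and Il4 rose by 2.95, 3.05 and 2.92. Kif20a and Ntpcr differed by 0.25 and 0.32 (adjusted p = 0.115 and 0.0804). These correlations describe 6 arrays that fall into 2 groups, so any gene with tight and distant groups gives a high r.

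Of 14 Notch target genes outside the family that were on the array, Nrarp, Notch3 and Il2ra were called higher in the fit without a filter and none was called lower, where 1.09% of 18193 genes were called higher and 0.693% lower in limma. The median difference of the 14 was 0.36, against 0.01 over all genes. The main fit tested 13 of the 14, where 1.89% of 12837 genes were called higher and 1.27% lower, and also called Dtx1. Of its calls, Notch3, Il2ra and Dtx1 had passed the filter through their ICN2 positive arrays alone, so they had to differ and the count there is not read against the background. At an unadjusted p of 0.05, 1 of the 13 was lower. Nrarp, a feedback inhibitor of Notch, read 10.52, 9.75 and 10.08 in the ICN2 negative samples and 12.33, 12.34 and 12.14 in the ICN2 positive samples, a rise of 2.15 ± 0.20. The receptor gene Notch3 was at least 3.35-fold higher, the interleukin 2 receptor gene Il2ra at least 5.33-fold and Dtx1, which encodes a Notch-binding ubiquitin ligase, at least 2.10-fold, each against the 40th percentile. Dtx1 was just past the threshold (adjusted p = 0.0488), and it missed it without a filter (0.0578), with an offset of 32 (0.0647) and with robust eBayes (0.0529). Its other probe set differed by 0.01 and that of Il2ra by 0.24, both dim, while the other probe sets of Nrarp and Notch3 rose by 2.59 and 2.49. In the main fit the count was 0 without ICN2 negative replicate 3 and 2 without any other single array but ICN2 positive replicate 1, where it was 4. In that fit Dtx4, a relative of Dtx1, was lower (-1.53, adjusted p = 0.0232, against -2.39 and 0.13 with all arrays).

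Among the genes that act upstream of the family and beside it, few passed the test. Of 7 measured Notch receptors and ligands, Notch3 rose and 6 did not pass (median difference -0.05 over the 9 on the array). It was also not called without ICN2 negative replicate 3. Of 10 measured genes for RBPJ and its partners in the nucleus, none passed in limma, with 2 higher and 3 lower at an unadjusted p of 0.05. The median was -0.01 over the 11 on the array. The smallest p-values there were those of the histone demethylase gene Kdm5a (0.37 ± 0.09, adjusted p = 0.0905) and the acetyltransferase gene Kat2a (0.65 ± 0.19, adjusted p = 0.119). Rbpj itself differed by -0.01 ± 0.07.

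The corepressors that Hes and Hey proteins use were measured with 10 genes, of which none passed in limma and 1 was higher at an unadjusted p of 0.05 (median -0.04). That gene was Tle1, a Groucho-related corepressor, at 7.40, 6.33 and 6.50 in the ICN2 negative samples and 7.90, 8.08 and 8.01 in the ICN2 positive samples. All ICN2 positive values were higher, as was so for 14.5% of all probe sets, and the difference was 1.25 ± 0.29 (adjusted p = 0.0839). Without ICN2 negative replicate 1, its highest ICN2 negative array, Tle1 was called higher (1.58 ± 0.11, adjusted p = 0.0171). In that fit 176 of 27424 probe sets were called higher. Leaving out any other single array gave no call in this list. The next smallest p was that of Tle5, a short relative of the TLE proteins, at -0.11 ± 0.07. None of 6 measured E protein and Id genes, the bHLH activators and their inhibitors, passed in limma, with 1 higher at an unadjusted p of 0.05 (median 0.04 over the 7 on the array). It was the E protein gene Tcf3, at 0.40 ± 0.16 (adjusted p = 0.202), followed by Tcf12 at 0.21 ± 0.10.

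Bhlhe40, which encodes a repressor of the same bHLH-Orange superfamily, was the only measured gene of that list and rose. It read 7.13, 6.88 and 6.86 in the ICN2 negative samples and 9.63, 8.68 and 8.77 in the ICN2 positive samples. The rise was 2.07 ± 0.27 (adjusted p = 0.0266), and 1.77 without ICN2 positive replicate 1, its highest array. Leaving out ICN2 positive replicate 3 or any of the ICN2 negative arrays ended the call. Its relative Bhlhe41 was below the 40th percentile on all 6 arrays.

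Of 12 genes known from other tissues as repressed by HES1 or Hey proteins, 10 were on the array by name and 4 were bright enough to test. None passed in limma, and 1 was lower at an unadjusted p of 0.05. The median difference over the 10 genes on the array was 0.01. The lower gene was Cd4, the T cell coreceptor (-0.39 ± 0.10, adjusted p = 0.0989). It read 5.73, 5.50 and 5.45 in the ICN2 negative samples and 5.16, 5.11 and 5.24 in the ICN2 positive samples. All ICN2 positive arrays were below the 40th percentile. Cd4 thus passed the filter through its ICN2 negative arrays alone, so it had to be lower there. Cebpa, a transcription factor gene of granulocyte and monocyte progenitors, read 12.65, 12.71 and 12.80 in the ICN2 negative samples and 8.73, 12.26 and 11.96 in the ICN2 positive samples. All ICN2 positive values were lower, as was so for 11.1% of all probe sets, with replicate 1 far under the others. The difference was -1.74 ± 0.94 (adjusted p = 0.314). Without ICN2 positive replicate 1 it was -0.61 ± 0.12 (adjusted p = 0.0685). Of the 10 genes, 5 lay below the 40th percentile on all 6 arrays.

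**Figure D4:**
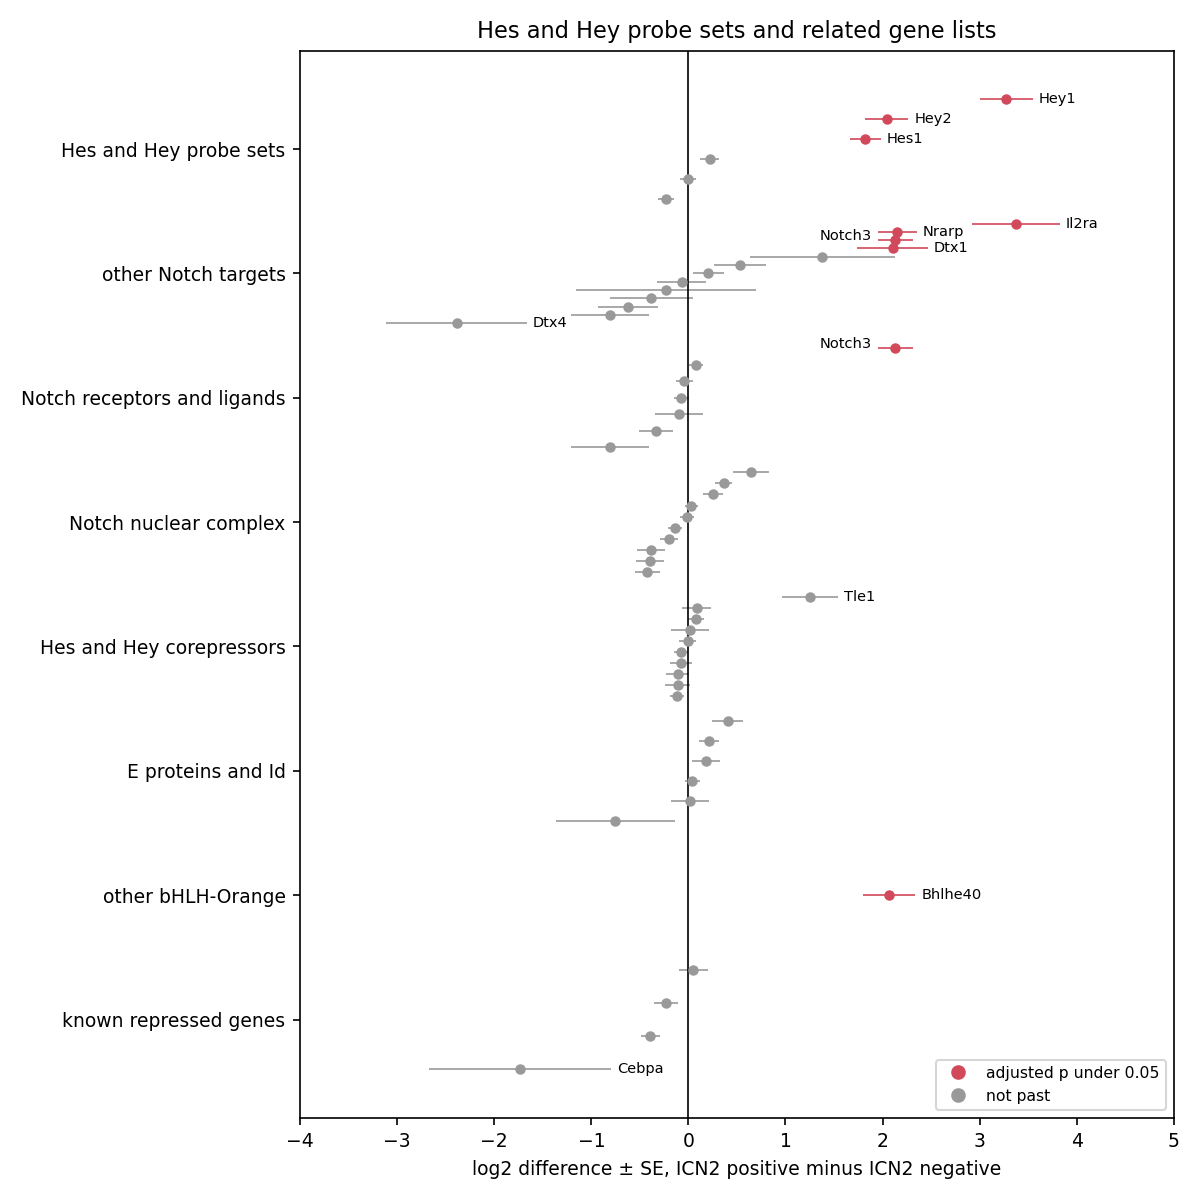
Log2 difference ± SE (x axis) of the 6 tested Hes and Hey probe sets and of the measured genes of 7 related lists (y axis), read by the brightest probe set of each gene; red marks an adjusted p under 0.05. The called genes beside Hes1, Hey1 and Hey2 are Nrarp, Notch3, Il2ra, Dtx1 and Bhlhe40, all higher, and Notch3 stands in 2 lists.

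Hes1, Hey1 and Hey2 are also expressed outside these progenitors, for example in vessel walls and in T cell precursors, so marker genes of such cells were read on the same arrays. In bulk samples, fewer cells of a type and less RNA per cell cannot be told apart. None of 6 measured endothelial genes passed in limma (2 higher at an unadjusted p of 0.05). Of the 9 on the array, 5 were above the 40th percentile on all 6 arrays, and 2, Cdh5 and Robo4, were below it on all 6. The summed intensity of the 9 endothelial genes on the array was 1293 to 1892 in ICN2 negative and 1475 to 2118 in ICN2 positive samples, so the groups overlapped. The median difference of the 9 was -0.22. Of the 6 measured, Pecam1, Vwf and Egfl7 differed by -0.50, -0.22 and -0.06, and Kdr by 0.52. Tek and Esam differed by 1.90 and 1.54 with all arrays, and were called higher (2.55 and 2.07) without ICN2 positive replicate 1. None of 4 measured stromal genes passed (1 higher at an unadjusted p of 0.05). The sums over the 7 stromal genes on the array were 562 to 696 and 754 to 1597. The pericyte gene Pdgfrb was higher (1.74) without ICN2 positive replicate 1, against 1.34 with it. The next smallest p there was that of the collagen gene Col1a2, at -0.32 ± 0.26.

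Of 6 measured T cell genes, none passed in limma and 3 were higher at an unadjusted p of 0.05. Their summed intensity over the 7 genes on the array was 307 to 549 in ICN2 negative and 777 to 2672 in ICN2 positive samples, without overlap, and Cd8b1 was below the 40th percentile on all 6 arrays. Those of smallest p were Cd3e (1.35 ± 0.41, adjusted p = 0.131) and Cd7 (2.31 ± 0.76, adjusted p = 0.148). Of 8 measured mast cell genes, the protease genes Mcpt1, Mcpt2 and Mcpt4 rose and 5 did not pass. These 3 passed the filter through their ICN2 positive arrays alone, so they had to differ and that count is not read against the background. Without a filter the same 3 were called among the 9 genes on the array, where 1.09% of 18193 genes were called higher. The sums over the 9 genes were 4070 to 6216 in ICN2 negative and 4091 to 12417 in ICN2 positive samples. Of the 5 genes that did not pass, Fcer1a, Cpa3 and Ms4a2 differed by -1.35, -0.32 and -0.03. Without ICN2 positive replicate 1 these 3 differed by 0.31, 0.34 and 0.93. Cma1 and Tpsb2 differed by 0.82 and 0.08 with all arrays. Mcpt4 was not called without ICN2 positive replicate 2 or without any of the ICN2 negative arrays, and Mcpt1 not without ICN2 negative replicate 2 or 3 or ICN2 positive replicate 3. None of 6 measured B cell genes passed in limma, with 4 lower at an unadjusted p of 0.05. The sums over the 7 B cell genes on the array were 2359 to 9942 against 677 to 1846. The smallest p-values were those of the adaptor gene Blnk (-2.57 ± 0.60) and of Cd79b (-1.47 ± 0.54), a chain of the B cell receptor. The part of such cells in the rises of Hes1, Hey1 and Hey2 was not tested.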

How the data were processed

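The deposited table holds 1 intensity per probe set and array on a linear scale, made by the authors with RMA, per the submitters' processing notes, which name no version. The RNA, 5 ng a sample, was amplified and labelled with biotin per the labels' protocols. RMA equalises the arrays, so a change in total RNA per cell would not show. Log2 was taken here. Of 45101 probe sets, 64 were array controls, 34958 had 1 gene name, 932 several and 9211 none. Only those with 1 were named.

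Groups came from the labels. Differences were tested with lmFit and eBayes (limma 3.58.1, R 4.3.3) and no covariate, over 27424 probe sets above the 40th percentile on at least 3 of 6 arrays, calling a Benjamini-Hochberg adjusted p under 0.05. All adjusted p-values come from it unless another test is named. Related genes were read by their probe set of highest mean. The fit was checked on simulated data. "At least" folds were set against the 40th percentile where all 3 arrays of a group lay below it.

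The members and the 15 gene lists were chosen with earlier results of these data known. All member probe sets were named. From each list, the called genes or else the 2 of smallest p were named, and for Hes1 and Hey1 the 5 genes of highest correlation. Dtx4, Rbpj, Kat2b and single markers of the sort and of other cell types were named after their values were seen. Promoter windows came from RefSeq (GRCm38.p6). Alternatives covered the filter, centring, an offset, variance models, array weights, the replicate number, 1 probe set per gene and each array left out. Scanner files were not analysed here.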

Additional observations from a re-analysis of the deposited data

How the results depend on the processing

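The number of arrays limits the precision, and without scanner files no measured background lies behind dim values. Hey1, Hey2 and Hes1 stayed higher in all alternatives that tested them, and the count of called family probe sets was 3 throughout, except under a stricter filter and with the replicate number as a block, at 2 each, and with an array left out, at 1 to 3. The stricter filter, at the 60th percentile, did not test Hey2. With an array left out, the rise was 1.72 to 1.98 for Hes1, 2.99 to 3.45 for Hey1 and 1.90 to 2.29 for Hey2. The nearly flat Hes6 probe set 1436050_x_at changed sign, between -0.049 and 0.063, in those fits. The rise of Hey2 was 1.04 with an offset of 32, because the offset damps dim values, and 1.73 with array weights.

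The count of other Notch targets called higher was 1 with the stricter filter, which tests fewer dim genes, 2 with the replicate block, which lost Dtx1 (adjusted p = 0.0754) and Il2ra (0.0801), and 0 to 4 with an array left out. Array weights called Tle1, Tcf3 and Kat2a higher and Kat2b lower (adjusted p = 0.0271, 0.0451, 0.0435 and 0.0401). The count of other Notch targets called lower was 1 with array weights and 0 to 1 with an array left out. For the block, the deviations of same-numbered arrays correlated at 0.18, 0.10 and 0.09, not all over 0.1. Not every array correlated best with its own number, so the numbers were not taken as pairs. The controls were littermates, but the sample titles name no litter, so a pairing by litter was not tested. The block lowered the calls over all probe sets from 728 to 268, and Hes1 stood at 1.82 with an adjusted p of 0.0535. The cause was not tested.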
